A study of Mus musculus with 4 samples.

Results

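The glucocorticoid receptor and its best-known response genes were followed in the blood of mice treated with naringenin (Nar), a flavonoid. The set held 9 genes, the receptor gene Nr3c1 and the response genes Fkbp5, Tsc22d3, Per1, Klf9, Sgk1, Ddit4, Anxa1 and Txnip. They were chosen by gene symbol, and all 9 were found among the 17823 genes with values. C57BL/6 mice, called adult in the sample labels and 12 months old in the study's methods, received Nar at 20 mg/kg through the tail vein for 30 days. Control mice (Ctrl) were given phosphate-buffered saline (PBS) for the same time. Polyadenylated RNA of blood was sequenced, and 4 libraries were analysed, numbered 1 and 3 in each group. The labels do not say whether a library came from 1 mouse or from several, so that p-values measure the spread between these libraries only.

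Glucocorticoids are adrenal steroids that enter cells and bind the receptor encoded by Nr3c1. Without ligand the receptor is held in the cytoplasm by chaperones, and with ligand it moves to the nucleus and binds DNA as a dimer at glucocorticoid response elements. In blood, glucocorticoids are known for restraining inflammation, killing or redistributing lymphocytes and releasing neutrophils from the marrow. Fkbp5 encodes a cochaperone that lowers the receptor's affinity for its ligand, and Tsc22d3 encodes GILZ, which restrains NF-kappaB and AP-1. Several of the genes also answer to other signals, Per1 to the circadian clock, Txnip to glucose and Ddit4 to hypoxia and energy stress.

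The palindrome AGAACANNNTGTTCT, in which N is any base, is an idealised response element of the receptor, and it contains 2 copies of the half-site AGAACA, read on opposite strands (TGTTCT). Together with the E-box CACGTG, which the clock factors bind, these motifs were searched on both strands in the 250 bases before each RefSeq gene start of GRCm38.p6. The table of starts covered 8 of the 9 genes, all but Nr3c1, with 16 starts. The full palindrome was found before 3 of 32851 starts (0.00913%), and 1 of these belonged to Sgk1. The half-site was found before 16.1% of all starts, and before 4 of the 16 starts of the 8 genes, which belonged to Sgk1 and Tsc22d3. The E-box was found before 6.02% of all starts, and before 3 of the 16 starts, which belonged to Fkbp5, Per1 and Sgk1. Sgk1 had more starts than any other of the 8 genes, and so more windows in which a motif could be found. The sequences below are shown because they hold these matches, and those of Anxa1 and Ddit4 because these genes had the lowest and the highest change with Nar. Each is read 5′ to 3′ on the strand of the gene and ends at the base before the start, and capitals mark every match to any of the motifs.
Sgk1, chr10:21993640-21993889, + strand: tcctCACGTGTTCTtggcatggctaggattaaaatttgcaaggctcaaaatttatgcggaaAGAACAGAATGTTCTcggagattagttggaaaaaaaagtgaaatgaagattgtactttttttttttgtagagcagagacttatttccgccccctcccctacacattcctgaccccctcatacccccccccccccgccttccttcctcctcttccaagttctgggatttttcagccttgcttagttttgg
Tsc22d3, chrX:140600523-140600772, - strand: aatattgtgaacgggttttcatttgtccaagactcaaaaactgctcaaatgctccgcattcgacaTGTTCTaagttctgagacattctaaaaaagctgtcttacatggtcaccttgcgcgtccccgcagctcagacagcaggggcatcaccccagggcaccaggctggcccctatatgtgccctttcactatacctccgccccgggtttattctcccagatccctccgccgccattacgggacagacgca
Per1, chr11:69098699-69098948, + strand: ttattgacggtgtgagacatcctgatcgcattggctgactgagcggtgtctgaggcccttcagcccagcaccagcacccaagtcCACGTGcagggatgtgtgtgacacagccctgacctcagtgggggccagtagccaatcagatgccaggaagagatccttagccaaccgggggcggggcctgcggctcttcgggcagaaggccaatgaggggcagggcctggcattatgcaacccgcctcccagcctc
Anxa1, chr19:20390672-20390921, - strand: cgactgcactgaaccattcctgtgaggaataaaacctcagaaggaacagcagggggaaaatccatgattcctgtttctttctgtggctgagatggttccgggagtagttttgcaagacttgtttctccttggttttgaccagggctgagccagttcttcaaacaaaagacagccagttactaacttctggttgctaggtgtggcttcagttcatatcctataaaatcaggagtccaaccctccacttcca
Ddit4, chr10:59951771-59952020, - strand: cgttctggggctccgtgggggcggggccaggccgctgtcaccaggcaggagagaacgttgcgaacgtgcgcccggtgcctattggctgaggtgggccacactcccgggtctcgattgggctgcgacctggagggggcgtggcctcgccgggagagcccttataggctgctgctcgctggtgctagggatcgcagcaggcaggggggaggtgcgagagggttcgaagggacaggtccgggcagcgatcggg
In the Sgk1 window shown, the palindrome lay 189 to 175 bases before the start. A further half-site at 242 to 237 bases overlapped an E-box at 246 to 241 bases. In the Tsc22d3 window the half-site lay 185 to 180 bases before the start. The Anxa1 and Ddit4 windows held none of the 3 motifs, which says only that these letters are not there, since many known receptor sites lie far from gene starts.

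Values were deposited as FPKM, the fragments of a transcript per kilobase of its length and per 1000000 mapped fragments. Steps in the lowest values placed the depth at an estimated 21800000 to 22900000 fragments in each of the 4 libraries. Haemoglobin genes took 95.1% and 92.6% of the summed FPKM in controls and 95.7% and 96.4% with Nar, and the other genes shared the rest. Genes whose FPKM averaged 0.5 or more over the 4 libraries were tested, 5339 in all, and their median difference between Nar and Ctrl was -1.07 on the log2(FPKM + 0.1) scale. Each change given for a gene therefore has to be read against this median. Markers of blood cells did not move alike. The summed FPKM of 10 neutrophil markers came to 1623 (Ctrl 1) and 1352 (Ctrl 3) against 98.2 (Nar 1) and 155 (Nar 3). The sum over 7 B cell markers was 43.1, 32.4, 32.7 and 32.6 in the same order. In blood, fewer cells of a type and less RNA per cell cannot be told apart.

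The first question was how the receptor and its response genes differed between the groups. For 8 of the 9 genes neither Nar library reached the lower control. This was also the case for 78.3% of all tested genes, while 1.27% lay above both controls in both Nar libraries. Klf9 had a mean under 0.5 FPKM, and the other 8 genes were tested. With Nar, Nr3c1 (0.385 FPKM), Per1 (0.355 FPKM), Sgk1 (0.275 FPKM) and Fkbp5 (0.495 FPKM) averaged under this limit and passed it through their control values. In limma fitted over all 5339 genes, with Benjamini-Hochberg adjustment, 4 of the 8 had an adjusted p-value under 0.05 and were lower with Nar, namely Anxa1, Per1, Sgk1 and Nr3c1. Among all tested genes, 39.6% were lower by this criterion and 0.187% were higher. None of the 8 was higher by it, and 5 of the 8 had an unadjusted p-value under 0.05 in limma, as did 56.9% of all tested genes. With a library left out the limma calls dropped across the whole table as well. Without Ctrl 1 or Ctrl 3 none of the 5339 genes was called, the 8 included (5 and 4 of the 8 had an unadjusted p-value under 0.05, beside 50.2% and 40.0% of all tested genes). Without Nar 1 the calls numbered 259 over all genes and 0 of the 8 (4 unadjusted, beside 39.0% of all tested genes), and without Nar 3 they numbered 213 and Per1 was the only 1 of the 8 among them. With each library left out the fold changes ran from -3.40 to -2.63 for Anxa1, from -2.68 to -1.79 for Per1, from -2.03 to -1.91 for Sgk1 and from -1.62 to -1.05 for Nr3c1. Among the other genes, those of Fkbp5 ran from -1.72 without Nar 3 to -0.22 without Nar 1, and those of Klf9 from -1.38 to -0.38 without the same libraries. Those of Tsc22d3 ran from -1.01 without Ctrl 1 to -0.33 without Ctrl 3, and those of Txnip from -1.70 to -0.87 without the same libraries. The median change of the 9 genes was -1.29, close to the median of all tested genes. The changes were spread widely around it, from -3.02 for Anxa1 to -0.05 for Ddit4.

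**Figure D1:**
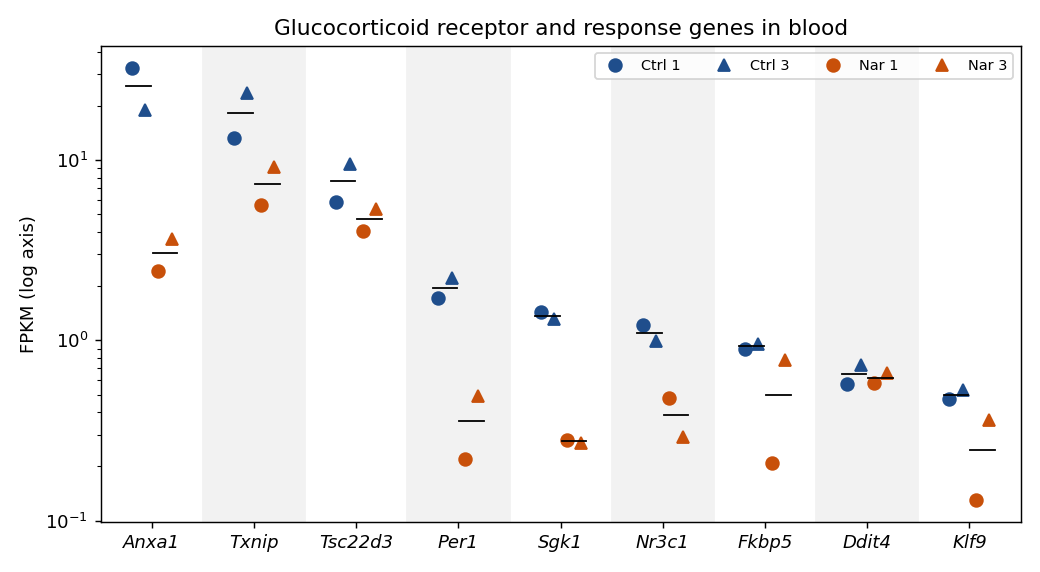
FPKM of the 9 genes (log axis) in the 2 Ctrl libraries (blue) and the 2 Nar libraries (orange), with circles for replicate 1, triangles for replicate 3 and black bars for group means. Ddit4 is the gene whose groups overlap, and Anxa1 shows the widest gap, from 19.0 FPKM in the lower control to 3.67 FPKM in the higher Nar library.

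Nr3c1 (NCBI Gene 14815), the receptor itself, was listed at 1.22 FPKM in Ctrl 1 and 0.99 FPKM in Ctrl 3, and at 0.48 FPKM in Nar 1 and 0.29 FPKM in Nar 3. The groups did not overlap, and Nar 3 was the lowest library. The mean was 1.105 ± 0.163 (SD, n = 2) in the control group, against 0.385 ± 0.134 (SD, n = 2) after Nar. The log2 fold change was -1.33 (standard error 0.386, limma adjusted p = 0.0305), and after subtracting the all-gene median of -1.07 the difference was -0.26. A lower change was found for 29.1% of the tested genes. With transcripts of up to 6436 bases, the 4 values rest on an estimated 175, 139, 69 and 43 fragments in the same order.

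Anxa1 (NCBI Gene 16952) encodes annexin A1, a phospholipid-binding protein that limits neutrophil recruitment and is itself abundant in neutrophils and monocytes. It had the highest mean of the 9 genes in controls, at 32.7 FPKM in Ctrl 1 and 19.0 FPKM in Ctrl 3, against 2.44 FPKM in Nar 1 and 3.67 FPKM in Nar 3. Every Nar value was far under every control value, and the means differed 8.09-fold on the log2(FPKM + 0.1) scale. The log2 fold change was -3.02 (standard error 0.512, limma adjusted p = 0.0073), and 1.498% of the tested genes had a lower one. The 10 neutrophil markers moved with it, and all 10 had a limma adjusted p-value under 0.05, with a median log2 fold change of -3.67. None of these 10 was at 0 in all libraries, and their part in the result for Anxa1 was not tested.

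Per1 (NCBI Gene 18626), a negative limb of the circadian clock and a direct target of the receptor, had 1.71 FPKM in Ctrl 1 and 2.21 FPKM in Ctrl 3, and 0.22 FPKM in Nar 1 and 0.49 FPKM in Nar 3. Its log2 fold change was -2.23 (standard error 0.405, limma adjusted p = 0.00873), with 5.04% of the tested genes lower. The hour at which blood was drawn is not given in the sources used here.

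Sgk1 (NCBI Gene 20393), the kinase gene with the full palindrome in 1 of its several promoter windows, had close replicates. It had 1.43 FPKM in Ctrl 1, 1.31 FPKM in Ctrl 3, 0.28 FPKM in Nar 1 and 0.27 FPKM in Nar 3. The groups stood well apart. The log2 fold change was -1.97 (standard error 0.359, limma adjusted p = 0.00879), and 7.40% of the tested genes had a lower one. The estimated fragments behind the values of Sgk1 were 99 and 88 in controls and 19 in each Nar library, so that counting error alone comes to about 22.9% of a Nar value.

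The remaining genes did not pass the threshold. Txnip (NCBI Gene 56338), which encodes an inhibitor of thioredoxin and of glucose uptake, had 13.2 FPKM in Ctrl 1, 23.5 FPKM in Ctrl 3, 5.62 FPKM in Nar 1 and 9.14 FPKM in Nar 3. The groups did not overlap, but the controls differed 1.77-fold, and the log2 fold change of -1.29 had a standard error of 0.534 and a limma adjusted p of 0.0752. Its unadjusted p-value was 0.0393 in limma, and the 95% interval ran from -2.49 to -0.08.

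Tsc22d3 (NCBI Gene 14605), encoding GILZ, was at 5.88 FPKM in Ctrl 1, 9.50 FPKM in Ctrl 3, 4.03 FPKM in Nar 1 and 5.39 FPKM in Nar 3. The higher Nar library and the lower control library were thus nearly level. The log2 fold change was -0.67 (limma adjusted p = 0.242), with a 95% interval from -1.75 to 0.41, and 78.2% of the tested genes had a lower change.

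Fkbp5 (NCBI Gene 14229) separated the Nar libraries more than the groups. The controls were at 0.9 and 0.95 FPKM, Nar 3 was at 0.78 FPKM, and Nar 1 was at 0.21 FPKM. The log2 fold change was -0.97 (standard error 0.505, limma adjusted p = 0.129), with a 95% interval from -2.11 to 0.17. An estimated 18 fragments stood behind the value in Nar 1 and 69 behind that in Nar 3, if the longest transcript is assumed.

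Klf9 (NCBI Gene 16601), a zinc finger repressor induced by glucocorticoids, showed the same order at lower values. It had 0.47 and 0.53 FPKM in controls, 0.13 FPKM in Nar 1 and 0.36 FPKM in Nar 3. The difference of -0.88 on the log2 scale was not tested because of the low mean.

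Ddit4 (NCBI Gene 74747), an inhibitor of mTORC1 that glucocorticoids and stress induce, was the exception in the set. It had 0.57 FPKM in Ctrl 1 and 0.73 FPKM in Ctrl 3, and 0.58 FPKM in Nar 1 and 0.66 FPKM in Nar 3. Both Nar values fell between the controls. The log2 fold change was -0.05 (standard error 0.369, limma adjusted p = 0.904), and its 95% interval from -0.89 to 0.78 includes changes of some size in either direction. A lower change was found for 93.0% of the tested genes. The values rest on an estimated 22 to 28 fragments each.

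Because most genes were lower with Nar, the same values were set on other scales. Without haemoglobin genes and with the rest rescaled to a common sum, Anxa1 (log2 fold change -2.46, limma adjusted p = 0.00558) and Per1 (log2 fold change -1.75, limma adjusted p = 0.0457) passed the threshold. On that scale 5.01% of all tested genes were lower and 0.263% were higher by the same criterion. Sgk1 (-1.51, limma adjusted p = 0.103) and Nr3c1 (-0.87, limma adjusted p = 0.306) did not pass there. Median-of-ratios scaling sets the typical gene level between libraries, and after it none of the 8 tested genes passed in limma (4 had an unadjusted p-value under 0.05, beside 14.9% of all tested genes), where 0.599% of all tested genes were lower and 0.187% higher. The changes were then -1.86 for Anxa1, -1.21 for Per1, -0.98 for Sgk1, -0.33 for Nr3c1, -0.12 for Txnip, 0.03 for Klf9, 0.04 for Fkbp5, 0.49 for Tsc22d3 and 0.96 for Ddit4. The order of the genes was that of the deposited scale except that Klf9 and Fkbp5 changed places, while the sign of Fkbp5, Tsc22d3, Klf9 and Ddit4 turned positive. The deposited values cannot tell which scale holds per volume of blood.

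**Figure D2:**
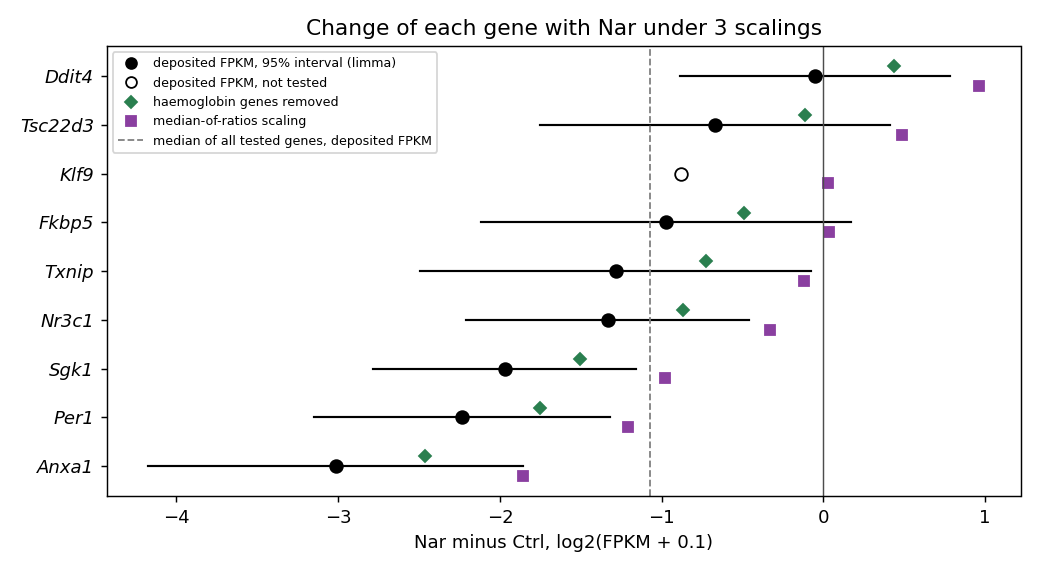
Difference between Nar and Ctrl in log2(FPKM + 0.1) for each gene, with the 95% interval from limma for the 8 tested genes, and the same difference with haemoglobin genes removed (green) and after median-of-ratios scaling (purple). Klf9, which was not tested, has no green point. The dashed line is the median of all tested genes at -1.07, and Anxa1, Per1, Sgk1, Nr3c1 and Txnip stay left of 0 under all 3 scalings while Ddit4 moves from -0.05 to 0.96.

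The second question was whether the response genes kept their proportion to the receptor. A ratio of 2 genes within a library does not depend on how that library is scaled, so each of the 8 response genes was divided by Nr3c1 without a pseudocount. The ratio of Anxa1 to Nr3c1 was 26.8 and 19.2 in controls and 5.08 and 12.7 with Nar. The ratio of Sgk1 to Nr3c1 was 1.17 and 1.32 in controls and 0.583 and 0.931 with Nar. In these 2 genes both Nar ratios lay below both control ratios, which was the case for 8.99% of the tested genes with values above 0. The ratio of Ddit4 to Nr3c1 went the other way, with 0.467 and 0.737 in controls and 1.21 and 2.28 with Nar, as it did for 33.2% of the tested genes.

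For the other 5 response genes the groups overlapped. The ratio of Tsc22d3 to Nr3c1 was 4.82 and 9.60 in controls and 8.40 and 18.6 with Nar. For Per1 it was 1.40 and 2.23 in controls, 0.458 in Nar 1 and 1.69 in Nar 3, so that Nar 3 lay between the controls and Nar 1 below them. The widest spread within a group was that of Fkbp5, with a ratio of 0.438 in Nar 1 and 2.69 in Nar 3 around control ratios of 0.738 and 0.96. With 2 libraries against 2, an exact two-sided permutation test cannot give a p-value below 0.333. This value was reached by Anxa1, Sgk1 and Ddit4, with 0.889 after Benjamini-Hochberg adjustment over the 8 exact tests.

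**Figure D3:**
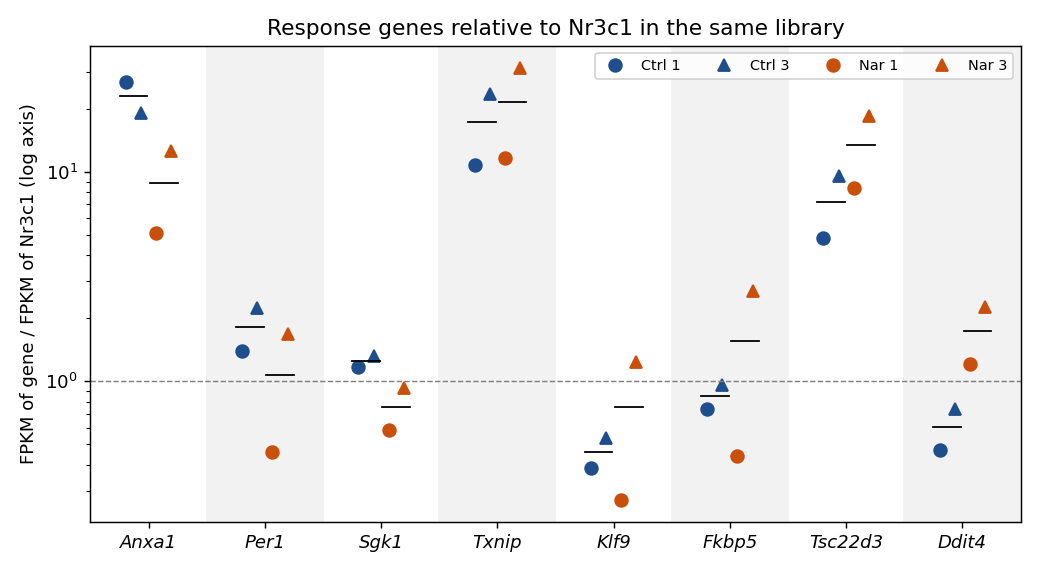
FPKM of each response gene divided by the FPKM of Nr3c1 in the same library (log axis), ordered by the change with Nar, with blue for Ctrl, orange for Nar, circles for replicate 1, triangles for replicate 3 and bars for group means. Anxa1 and Sgk1 are lower in both Nar libraries, and Ddit4 is higher in both. The shared denominator, Nr3c1, was 0.48 FPKM in Nar 1 and 0.29 FPKM in Nar 3, which by itself raises every Nar 3 ratio.

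The 2 Nar libraries also differed from each other in these genes. Of the 9 genes, 7 were higher in Nar 3 than in Nar 1, against 28.9% of all tested genes. Fkbp5 was 3.71 times as high in Nar 3 as in Nar 1, Klf9 2.77 times, Per1 2.23 times, Txnip 1.63 times and Anxa1 1.504 times. Nr3c1 (0.604 times) and Sgk1 (0.964 times) were the exceptions. Counting untested genes too, 12 clock genes (Per1 included) were higher and 3 lower in Nar 3, as were 17 and 12 of the other induced genes and 8 and 6 of the repressed genes. The 28.9% covers tested genes only, so these list counts have no like share beside them. Only 3 of the 17 clock genes with values were tested, and the others averaged under 0.5 FPKM, where counting error is large. The coregulators (4 higher and 12 lower), the paralogues (4 and 13) and the chaperone list (0 and 10) were mostly lower in Nar 3. The summed FPKM of the neutrophil markers was also higher in Nar 3 (98.2 in Nar 1 and 155 in Nar 3), with 7 of the 10 markers higher there and 3 lower. The sum over 9 monocyte markers was lower in Nar 3, at 139 FPKM in Nar 1 and 95.8 FPKM in Nar 3, as were all 9, and the part of either in the pattern was not tested. Between the controls, 6 of the 9 genes were higher in Ctrl 3 than in Ctrl 1, where 56.6% of all tested genes were.

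Around the receptor itself, 12 genes of its chaperone complex and of ligand activation were listed, and 9 could be tested. In this and the following lists the lowest and the highest change are those among tested genes, and each count can be read against the 39.6% of all tested genes that were lower by the same criterion and their median of -1.07. Of these 3 had a limma adjusted p-value under 0.05 and were lower with Nar, and the median log2 fold change over the 9 was -0.92, which turned to 0.23 after median-of-ratios scaling. This count was not above that share. Hsd11b1, the enzyme that regenerates active glucocorticoid from its inert form, had the lowest change of the list (log2 fold change -1.95, limma adjusted p = 0.0189), with 1.54 (Ctrl 1) and 0.82 FPKM (Ctrl 3) against 0.29 (Nar 1) and 0.16 FPKM (Nar 3). Hsp90ab1, the constitutive Hsp90 that holds the receptor, had the highest change (log2 fold change -0.37, limma adjusted p = 0.528), with 21.8 (Ctrl 1) and 15.45 FPKM (Ctrl 3) against 15.4 (Nar 1) and 13.2 FPKM (Nar 3). Bag1, a cochaperone with the highest level in this list, overlapped between the groups, at 24.1 (Ctrl 1) and 55.7 FPKM (Ctrl 3) against 31.04 (Nar 1) and 16.95 FPKM (Nar 3). The related mineralocorticoid receptor Nr3c2 was listed at 0.05 to 0.13 FPKM and was not tested, and it was named after its values were seen.

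Among coregulators of the receptor, 5 of 10 tested genes passed and all 5 were lower, beside 39.6% of all tested genes, with a median of -1.03 that turned to 0.04 after median-of-ratios scaling. The acetyltransferase gene Ep300 had the lowest change (log2 fold change -1.70, limma adjusted p = 0.0134). The corepressor gene Ncor1 was the most abundant (log2 fold change -1.17, limma adjusted p = 0.0485), with 3.31 (Ctrl 1) and 4.19 FPKM (Ctrl 3) against 1.94 (Nar 1) and 1.32 FPKM (Nar 3). Carm1, an arginine methyltransferase gene, overlapped between the groups, with 1.03 (Ctrl 1) and 3.46 FPKM (Ctrl 3) against 2.20 (Nar 1) and 1.94 FPKM (Nar 3) (log2 fold change 0.11, limma adjusted p = 0.860).

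Genes called lower were found both among other genes that glucocorticoids induce and among genes that they repress. Of 23 tested genes on the induced list 14 passed, and of 10 on the repressed list 7 passed, and all calls were lower. The median log2 fold changes were -1.56 for the induced list and -2.42 for the repressed list, and after median-of-ratios scaling -0.57 and -1.40. The lowest change among induced genes was that of Dusp1, a MAP kinase phosphatase, with 31.6 (Ctrl 1) and 33.4 FPKM (Ctrl 3) against 1.06 (Nar 1) and 3.03 FPKM (Nar 3) (log2 fold change -4.10, limma adjusted p = 0.00439). Lcn2, a neutrophil granule gene with the highest level on the induced list, had 99.4 (Ctrl 1) and 75.2 FPKM (Ctrl 3) against 5.49 (Nar 1) and 7.03 FPKM (Nar 3) (log2 fold change -3.78, limma adjusted p = 0.00427). Il7r, the interleukin-7 receptor of lymphocytes, overlapped between the groups and had the highest change among tested genes of the induced list (log2 fold change -0.18, limma adjusted p = 0.765). On the repressed list the chemokine gene Cxcl2 had the lowest change (log2 fold change -5.23, limma adjusted p = 0.00238), with 13.4 (Ctrl 1) and 10.5 FPKM (Ctrl 3) against 0.12 (Nar 1) and 0.36 FPKM (Nar 3). Nfkb1, an NF-kappaB subunit gene, had the highest (log2 fold change -0.93, limma adjusted p = 0.0816). Ccl5, a chemokine gene of T and NK cells and the most abundant of that list, did not pass (log2 fold change -1.08, limma adjusted p = 0.0970). The neutrophil markers given above were lower along with both lists, and their part was not tested.

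Among paralogues of the 9 genes, 5 of 12 tested genes passed, all lower, a share close to the 39.6% of all tested genes, with a median of -1.18, or -0.12 after median-of-ratios scaling. Anxa2, another annexin, had the lowest change among the tested genes (log2 fold change -2.21, limma adjusted p = 0.0154), with 19.5 (Ctrl 1) and 14.9 FPKM (Ctrl 3) against 4.28 (Nar 1) and 3.01 FPKM (Nar 3). Anxa7 had the highest change of the list (log2 fold change -0.80, limma adjusted p = 0.107). Tsc22d1, a relative of Tsc22d3, was the most abundant at 214 (Ctrl 1) and 567 FPKM (Ctrl 3) against 224 (Nar 1) and 157 FPKM (Nar 3), and did not pass (log2 fold change -0.89, limma adjusted p = 0.187).

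Among annexin A1 receptors and the partners of Txnip and Ddit4, 5 of 10 tested genes passed, all lower, beside 39.6% of all tested genes, with a median of -1.14, or -0.16 after median-of-ratios scaling. Fpr2, a receptor for annexin A1 on neutrophils, had 8.87 (Ctrl 1) and 7.47 FPKM (Ctrl 3) against 1.00 (Nar 1) and 1.13 FPKM (Nar 3) (log2 fold change -2.82, limma adjusted p = 0.00448). Txn1, the thioredoxin that Txnip inhibits, had 8.12 (Ctrl 1) and 8.0 FPKM (Ctrl 3) against 1.69 (Nar 1) and 1.24 FPKM (Nar 3) (log2 fold change -2.40, limma adjusted p = 0.00774). The highest change in this list was that of the ubiquitin ligase gene Nedd4 (log2 fold change -0.48, limma adjusted p = 0.376).

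**Figure D4:**
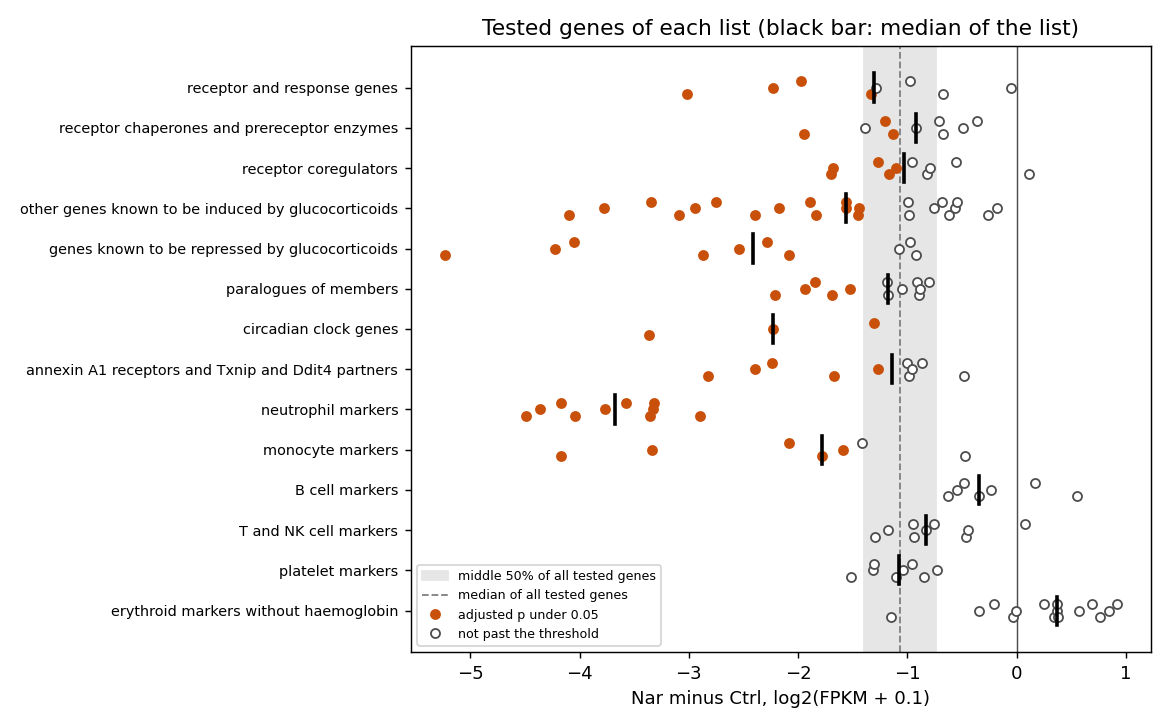
Difference between Nar and Ctrl in log2(FPKM + 0.1) for the tested genes of each list, with filled points for a limma adjusted p under 0.05, black bars for list medians, the dashed line for the median of all tested genes (-1.07) and grey for their middle 50%. Neutrophil markers have the lowest list median (-3.67), erythroid markers the highest (0.37, and 1.51 after median-of-ratios scaling), and the receptor and response genes span most of the range between them.

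Among blood cell markers, 5 of 7 tested monocyte markers passed and were lower, from -4.17 for Ly6c2 to -1.59 for Lyz2. Cx3cr1, with the highest change of that list, did not pass (-0.47, limma adjusted p = 0.612). None of 7 B cell markers, 9 T and NK cell markers, 8 platelet markers or 15 erythroid markers passed in limma, and 0, 4, 1 and 0 of them had an unadjusted p-value under 0.05. Their medians were -0.34, -0.83, -1.07 and 0.37 on the deposited scale and 0.82, 0.24, 0.10 and 1.51 after median-of-ratios scaling, so that the sign of the B cell, T and NK cell and platelet medians turned. The most abundant marker of each of these lists was Lyz2, Cd79a, Nkg7, Pf4 and Alas2 in the same order. The genes most like Nr3c1 over the 4 libraries were Arfgef1, Tnks2 and Slc25a5, whose centred log2 values differed from those of Nr3c1 by a root mean square of 0.023, 0.024 and 0.029. With 4 libraries such likeness is common, and 913 genes lay within 0.25 of the receptor.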

How the data were processed

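Blood RNA-seq libraries, 2 from Nar-treated and 2 from control mice, were used, grouped by the sample titles. The deposited unit was FPKM, which the authors computed for each gene and rounded to 2 decimals. According to the study's methods, bowtie-2 mapped the filtered reads to gene sequences, and the submitters' processing notes name TopHat2, Cufflinks and GRCm38 without versions. All 4 value columns were matched to libraries, and 0 were left over. Of 23136 genes listed, 5313 were blank throughout. The study called genes with DEGseq, which needs read numbers.

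Differences were computed on log2(FPKM + 0.1), which understates changes of low genes, over the 5339 genes whose FPKM averaged 0.5 or more. They were tested with limma 3.58.1, run in R 4.3.3, using its trended eBayes step, and Benjamini-Hochberg adjustment over all of them. Ratios to Nr3c1 were tested with an exact permutation test in scipy 1.17.1. The 9 genes and all gene lists were chosen with earlier results of these data known. Named genes were the 9 genes, the lowest, the highest and the most abundant gene of each other list, any gene called higher (there was none), and the 3 genes most like Nr3c1. Of the marker lists only some of these are named.

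Depth was estimated from FPKM multiplied by transcript length (GENCODE M21), over genes with 1 coding transcript of up to 1500 bases. In each library this product clustered at multiples of 1 step, searched between 30 and 80, and 75.8% to 78.2% of 204 to 248 low values lay within 0.25 of a step of a multiple. The step was the one at which these same values clustered most, so this share is no independent check of it. Values without any steps would often lie within that distance too. Fragments behind a value assume the longest GENCODE coding transcript, so they are upper estimates, and their error covers counting only. Promoter windows came from RefSeq for GRCm38.p6.

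The alternatives changed the pseudocount to 1 or 0.01, dropped the filter or raised it to a mean of 5, set each library to a sum of 1000000 (TPM), took out the haemoglobin genes, scaled by median of ratios, left out limma's trend, used the replicate number as a block, or left out each library in turn. A fit that leaves 1 library in a group assumes that it varies like the other group. Plots were drawn with matplotlib 3.10.9.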

Additional observations from a re-analysis of the deposited data

How the results depend on the processing

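The 4 calls among the 9 genes were unchanged in number with a pseudocount of 1 or 0.01, as TPM and without limma's trend. They fell to 0 with no filter, 1 with a mean FPKM of at least 5 (3 of the 9 genes tested), 2 with haemoglobin genes removed and 0 after median-of-ratios scaling, and ranged from 0 to 1 with each library left out. The 41 calls among the pathway lists became 0, 9, 16 and 5 under the same settings, and ranged from 0 to 13 with each library left out. Over all genes 2123 were called in limma, against 0 with no filter (4978 of 16382 had an unadjusted p-value under 0.05, and 5 of the 9 genes did), 117 with a mean FPKM of at least 5, 281 with haemoglobin genes removed and 42 after median-of-ratios scaling. Leaving out Ctrl 1 or Ctrl 3 gave 0 (2682 and 2133 unadjusted), and leaving out Nar 1 or Nar 3 gave 259 and 213. The median change of the 9 genes (-1.29) was -0.61 with a pseudocount of 1, -0.73 with haemoglobin genes removed and -0.12 after median-of-ratios scaling, and ran from -1.63 to -0.94 with each library left out. The median change of the ratios to Nr3c1 (0.31) was -0.13 with a pseudocount of 1 and ran from -0.84 without Nar 3 to 1.21 without Nar 1, with -0.09 without Ctrl 1. The change of Ddit4 turned to 0.44 with haemoglobin genes removed and 0.96 after median-of-ratios scaling, and ran from -0.21 to 0.10 with each library left out. After median-of-ratios scaling Fkbp5 was at 0.037 and Tsc22d3 at 0.49. The cause was not tested. Same-numbered libraries share only a number (correlation of their deviations -0.153). The replicate block gave 4 calls among the 9 genes, 38 among the lists and 1815 over all genes. A crossed pairing, added after the data were seen, gave 5, 51 and 3233. Of 117 alternative values for single genes of the 9, 83 kept their direction and side of the threshold, 25 no longer passed, 6 reversed, 1 newly passed and 2 moved by more than the replicate spread. These 2 were both of Klf9, which was not tested, and went to -0.27 with a pseudocount of 1 and to 0.03, past 0, after median-of-ratios scaling. By estimated fragments the lowest values were those of Klf9 (13) and Fkbp5 (18) in Nar 1 and of Sgk1 in both Nar libraries (19 each), followed by Ddit4 (22 to 28) and Per1 in Nar 1 (23).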

Other observations

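Clock genes other than Per1 were mostly near the lower limit of these values. Of 18 listed genes, 17 had values and 3 could be tested. These were Per1, Nfil3 and Bhlhe40, all called lower with Nar, as were 39.6% of all tested genes. All 3 averaged under 0.5 FPKM with Nar (0.355, 0.33 and 0.42) and passed the filter through their control values. The filter thus favoured a lower call among them. After median-of-ratios scaling the changes were -1.21, -2.32 and -0.29. Nfil3, a repressor of clock output that NK cells also need, had 4.15 (Ctrl 1) and 4.39 FPKM (Ctrl 3) against 0.26 (Nar 1) and 0.40 FPKM (Nar 3) (log2 fold change -3.36, limma adjusted p = 0.00246). Bhlhe40, which represses clock transcription, had 0.84 (Ctrl 1) and 1.56 FPKM (Ctrl 3) against 0.54 (Nar 1) and 0.30 FPKM (Nar 3) (log2 fold change -1.30, limma adjusted p = 0.0423). Per2, also a receptor target, had 0.64 (Ctrl 1) and 0.23 FPKM (Ctrl 3) against 0.06 (Nar 1) and 0.13 FPKM (Nar 3) and was not tested. Mt2, a metallothionein gene that glucocorticoids induce, had 0.25 (Ctrl 1) and 0.33 FPKM (Ctrl 3) against 0.32 (Nar 1) and 0.73 FPKM (Nar 3), so that its groups overlapped. Per2 and Mt2 were named after their values were seen.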
